A study of Mus musculus with 2 samples.

Results

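Chromatin modifiers and high mobility group (HMG) proteins were followed in testes of day 10 mice, with 1 array of homozygous mutant (Mili-/-) testes and 1 array of heterozygous (Mili+/-) testes. Piwil2 encodes MILI, a Piwi protein that carries piRNAs and acts against transposons in male germ cells. The heterozygous animals carry 1 mutant allele as well, so neither array is of wild type testis. The labels give no strain and no number of animals per array, and they place the arrest of the mutant germ cells early in meiotic prophase. The submitters took day 10 because dying cells were first seen a day later in the mutant. Members were the genes whose symbol belongs to named families of histone-modifying enzymes, Polycomb and heterochromatin proteins, ATP-dependent remodellers, and the HMG and Dek proteins, each read by a probe set annotated to exactly 1 symbol. This gave 71 genes of the 8251 read in that way, and a gene with several probe sets took the one with the highest mean signal. In the RefSeq gene table, 133 protein-coding symbols fit the same families, so the 71 cover only some of each family.

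Histones can be acetylated and methylated on their tails, and these marks are written, removed and read by dedicated enzymes and binding proteins. Polycomb repressive complex 2 methylates lysine 27 of histone H3, Polycomb repressive complex 1 ubiquitinates histone H2A, and HP1 proteins bind methylated lysine 9 of histone H3 in heterochromatin. SWI/SNF and CHD proteins use ATP to move nucleosomes, while HMG proteins bend DNA or bind nucleosomes without catalysing a modification. In germ cells these systems keep somatic genes silent, and they accompany entry into meiosis. At this age the tubules contain dividing spermatogonia, cells entering meiosis and immature Sertoli cells, so each signal mixes several cell types. In such a mixture, fewer cells of a type and less RNA per cell cannot be told apart.

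Each probe set had 1 linear signal intensity per array, and differences are given as log2 of Mili-/- minus Mili+/- after each array was centred on its median. A gene was compared when it reached the median signal on at least 1 array (41.5 in Mili-/- or 38.5 in Mili+/-). Of the 71 members 57 did so, 52 of them on both arrays, 1 on the Mili-/- array alone and 4 on the Mili+/- array alone. Across all 5095 genes past this filter the median difference was -0.13, and the central 95% of differences lay between -0.69 and 0.58. Most of that offset comes from centring on all probe sets, dim ones included, since the median was -0.02 in the deposited values. A member at -0.13 is therefore at the level of all genes, and values are read against that median. With 1 array per genotype there is no replicate to test against, so no p-value is reported. The available error is the SD of 0.31 (log2) between probe sets of one gene, taken over 720 genes, which holds neither the spread between animals nor that between hybridisations.

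The largest differences were in the DNA-binding chromatin protein gene Dek and the Polycomb gene Suz12, both lower in Mili-/-, and in the Polycomb gene Rnf2, higher in Mili-/- by the probe set used but not by its other one. Their promoter windows are shown because these genes stood farthest from the rest. The windows run from 250 bases before to 50 bases after the annotated start, are given 5′ to 3′ on the gene's strand, and come from RefSeq for GRCm38.p6. They lie at chr13:47106172-47106471 (minus strand) for Dek, chr11:79992856-79993155 (plus strand) for Suz12 and chr1:151500942-151501241 (minus strand) for Rnf2. Capitals mark matches on either strand to 2 E2F letter strings (TTCCCGC and TTGGCGC), the CCAAT box (CCAAT) and the GC box (GGGCGG), and a cAMP response half-site (TGACGT) was searched in the same way without a match in these windows.
Dek: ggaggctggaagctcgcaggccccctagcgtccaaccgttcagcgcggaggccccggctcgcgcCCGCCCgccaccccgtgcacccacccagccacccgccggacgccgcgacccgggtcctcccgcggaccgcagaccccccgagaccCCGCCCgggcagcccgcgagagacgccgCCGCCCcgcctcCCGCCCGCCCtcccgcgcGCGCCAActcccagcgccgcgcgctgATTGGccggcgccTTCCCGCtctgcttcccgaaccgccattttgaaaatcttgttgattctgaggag
Suz12: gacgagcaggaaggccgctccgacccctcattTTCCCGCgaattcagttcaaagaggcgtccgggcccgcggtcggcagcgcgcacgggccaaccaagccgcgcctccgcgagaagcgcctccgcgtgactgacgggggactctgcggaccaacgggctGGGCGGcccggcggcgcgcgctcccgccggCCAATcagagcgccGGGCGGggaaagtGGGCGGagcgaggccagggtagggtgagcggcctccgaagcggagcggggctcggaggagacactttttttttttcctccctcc
Rnf2: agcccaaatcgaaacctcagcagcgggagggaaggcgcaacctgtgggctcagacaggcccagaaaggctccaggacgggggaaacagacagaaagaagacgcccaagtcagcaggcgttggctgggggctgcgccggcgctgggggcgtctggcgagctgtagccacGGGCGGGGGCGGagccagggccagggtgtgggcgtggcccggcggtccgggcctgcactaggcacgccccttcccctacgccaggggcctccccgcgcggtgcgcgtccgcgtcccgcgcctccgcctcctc

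The Dek window held 5 GC boxes, 2 of which overlap, with 1 CCAAT box and 1 match to each E2F string. The Suz12 window held 3 GC boxes, 1 CCAAT box and 1 match to the first E2F string. The Rnf2 window held 2 adjacent GC boxes and no match to the other strings. Among all 32851 windows of this length in the table, 35.7% held the GC box, 37.4% the CCAAT box, 4.60% the first E2F string, 2.45% the second and 7.51% the half-site. Windows were found for 62 of the 71 members (80 windows), of which 67.5% held the GC box, 46.2% the CCAAT box, 12.5% the first E2F string, 5% the second and 7.5% the half-site. All 3 windows were rich in G and C, at 75.7% for Dek, 71.0% for Suz12 and 72.7% for Rnf2, against a median of 52.7% over all windows. A match says that the letters are present and is not evidence that a factor binds.

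As a list the members stood lower in Mili-/-. Their median difference was -0.26, which is 0.14 under the median of all genes. Centring shifts all genes alike, so it cannot alter that gap. Of the 57 members 40 lay below the median of all genes, a share of 70.2% against 50.0% of all genes by definition. A difference under 0 was seen for 47 members (82.5%), against 68.9% of all genes, and both shares carry the shift made by centring. The 25th and 75th percentiles of the members were -0.41 and -0.04, against -0.30 and 0.05 for all genes. Not every member was lower, since 17 members lay above the median of all genes and some of the brightest signals were close to equal on both arrays.

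**Figure D1:**
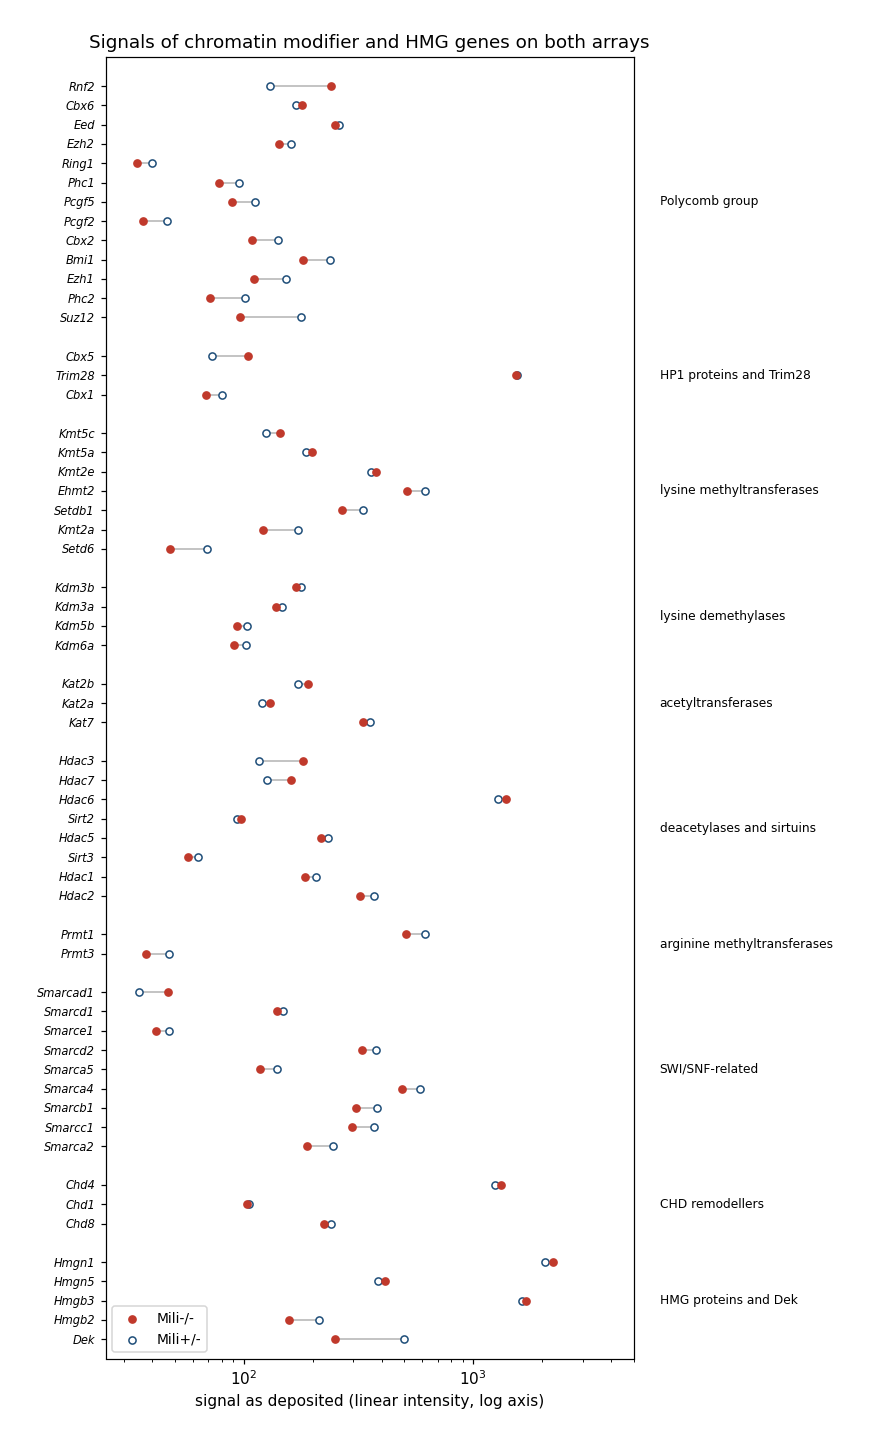
Signals as deposited for the 57 members past the brightness filter, on a log axis, with filled points for the Mili-/- array and open points for the Mili+/- array, grouped by role. Dek (250.9 in Mili-/- and 500.2 in Mili+/-) and Suz12 (96.7 in Mili-/- and 178.4 in Mili+/-) show the widest gaps to the left, and Rnf2 (240.8 in Mili-/- and 130.0 in Mili+/-) the widest to the right.

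Only 1 member, Dek, was at least 2-fold lower in Mili-/- (0.530% of all genes were), and no member was at least 2-fold higher (0.314% of all genes). At 1.5-fold, 5 members were lower in Mili-/-, namely Dek, Suz12, Setd6, Kmt2a and Phc2, which is 8.77% of the 57 against 5.04% of all genes. At that fold 1 member, Rnf2, was higher, which is 1.75% against 2.47% of all genes. Suz12, at 1.99-fold, lay just outside the 2-fold limit, and Ezh1, at 1.49-fold, just outside 1.5-fold. These splits moved with the scaling, with 2 members 1.5-fold higher in Mili-/- under each other scaling, beside 2 lower members without centring or under loess and 3 under quantile normalization. As shares, the lower members were then 3.51% without centring (2.43% of all genes), 3.51% under loess (2.71%) and 5.26% under quantile normalization (2.87%). The higher members were 3.51% under each, against 3.87% of all genes without centring, 3.61% under loess and 3.57% under quantile normalization. Dek reached 2-fold under median centring only, and its difference was -0.97 under quantile normalization and -0.98 under loess.

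Polycomb group genes were mostly lower in Mili-/-. Of the 14 members 13 passed the filter, their median was -0.44, and 11 of the 13 lay below the median of all genes. Relative to that median the group stood at -0.32, and it stayed between -0.32 and -0.31 under quantile normalization and loess. When both signals had to reach the filter, 11 members were left and 9 of them lay below the median of all genes. Spermatogonial markers had the same median difference (-0.44 over 9 genes), and their part in the Polycomb difference was not tested.

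Within Polycomb repressive complex 2, Suz12, a core subunit needed for the activity of the complex, had a signal of 96.7 in Mili-/- against 178.4 in Mili+/-, a log2 difference of -0.99. It took rank 28 from the lowest of all 5095 genes. Its second probe set past the filter pointed the same way, with 29.7 in Mili-/- and 44.3 in Mili+/- (-0.69). Only the Mili+/- signal of this second one reached the filter, which selects for a lower value in Mili-/-. A further one, dim on both arrays and under the filter, had 26.0 in Mili-/- and 16.9 in Mili+/- (0.51). With that dim probe set the mean over all 3 was -0.39. The other core subunits differed less than the probe set used for Suz12. Eed, which binds the methylated mark, had 249.8 in Mili-/- and 259.4 in Mili+/- (-0.16), about the median of all genes. Ezh2, the main catalytic subunit of dividing cells, had 142.8 in Mili-/- and 160.5 in Mili+/- (-0.28), and its paralog Ezh1 had 110.4 in Mili-/- and 152.7 in Mili+/- (-0.58). Suz12 and Ezh1 thus lay further below the median of all genes than the 0.31 SD between probe sets, and Eed and Ezh2 lay within it.

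In Polycomb repressive complex 1, most components were lower by a similar amount. Bmi1, a RING-finger partner that supports the ligase, had 180.5 in Mili-/- and 238.5 in Mili+/- (-0.51), and its relatives Pcgf2 and Pcgf5 stood at -0.45 and -0.44. Cbx2, a chromodomain subunit whose loss in mice causes male-to-female sex reversal, had 108.3 in Mili-/- and 141.1 in Mili+/- (-0.49), and a second probe set under the filter stood at -0.91. The Polyhomeotic genes Phc2, with 71.2 in Mili-/- and 101.2 in Mili+/- (-0.62), and Phc1 (-0.40) were also lower. Of the chromodomain genes Cbx6 stood at -0.02 on a probe set named for shared sequence, and Cbx7 was under the floor on both arrays.

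The catalytic RING-finger genes of this complex did not share one direction. Ring1 had 34.2 in Mili-/- and 40 in Mili+/- (-0.34), and only its Mili+/- signal reached the filter, which selects for a lower value in Mili-/-. Pcgf2 passed in the same way. Rnf2, which encodes the main ligase RING1B, had 240.8 in Mili-/- and 130.0 in Mili+/-, a difference of 0.78 and rank 5045 from the lowest of 5095. Its second probe set past the filter had 47.1 in Mili-/- and 53.5 in Mili+/- (-0.29), and the mean over its 3 probe sets was 0.19. The gap of 1.07 between the Rnf2 probe sets past the filter is over 3 times the 0.31 SD, so the direction for Rnf2 depends on the probe set.

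**Figure D2:**
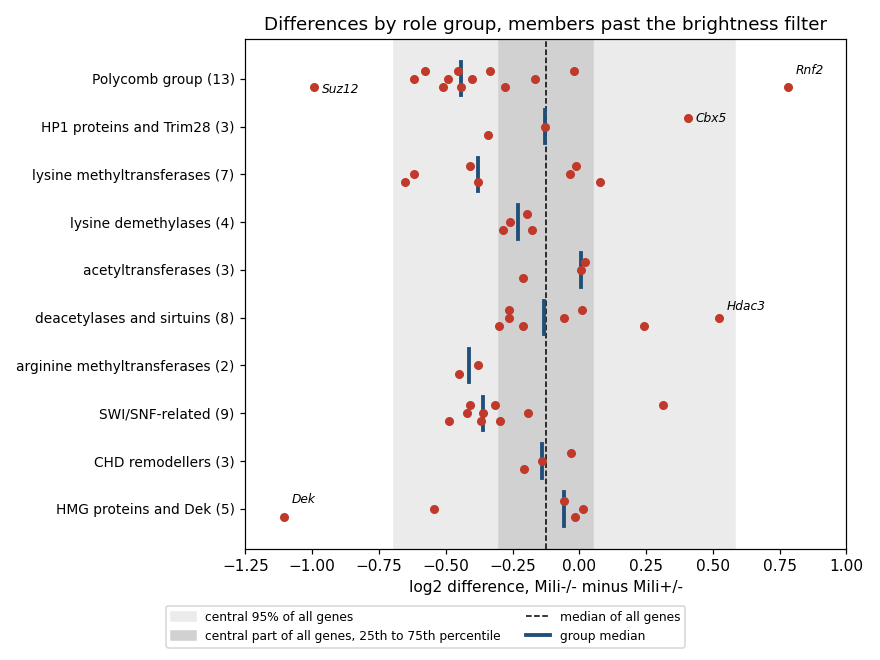
Log2 differences (Mili-/- minus Mili+/-) of the 57 members past the filter, 1 point per gene and 1 row per role group with its number of members, with the group median as a bar and the spread of all genes as grey bands. Polycomb group and SWI/SNF-related genes lie mostly left of the dashed median of all genes (-0.13), and only Dek, Suz12 and Rnf2 lie outside the central 95% band.

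Chromatin remodellers related to SWI/SNF were lower as a group, by a narrow margin each. All 9 passed the filter, the median was -0.36 (-0.24 relative to all genes), and 8 of 9 lay below the median of all genes. Centring shifts all genes alike and cannot alter that count, which was the same under quantile normalization and loess. The alternative ATPases of the complex were Smarca4 (BRG1), with 491.8 in Mili-/- and 587.9 in Mili+/- (-0.37), and Smarca2 (BRM), with 187.9 in Mili-/- and 243.9 in Mili+/- (-0.49). The core subunit genes Smarcc1 (297.2 in Mili-/- and 368.8 in Mili+/-, -0.42) and Smarcb1 (309.8 in Mili-/- and 381.7 in Mili+/-, -0.41) had nearly the same difference as the ATPases. Each of these gaps is below the 0.31 SD relative to the median of all genes except that of Smarca2 (-0.36).

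Other members of the family were mostly lower, by varying amounts. Smarcd2 had 3 probe sets past the filter at -0.32, -0.31 and -0.41, the last through the Mili+/- array alone. Their agreement was the closest among members with several probe sets, though the names of all 3 mark shared sequence or relaxed selection. Smarca5, the ISWI ATPase, had 117.5 in Mili-/- and 139.9 in Mili+/- (-0.36) by one probe set and 121.4 in Mili-/- and 117.7 in Mili+/- (-0.07) by another. Smarcd1 stood at -0.19, and Smarce1, which passed through the Mili+/- array alone, at -0.30. The exception was Smarcad1, a remodeller of heterochromatin outside the core complex, with 46.7 in Mili-/- and 34.8 in Mili+/- (0.31), and only its Mili-/- signal reached the filter, which selects for a higher value there.

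The CHD remodellers stood at the level of all genes. Of 5 members 3 passed the filter. Chd4, the ATPase of the NuRD deacetylase complex, had 1321.6 in Mili-/- and 1250.2 in Mili+/- (-0.03), on a probe set named for shared sequence. Chd1 and Chd8 stood at -0.14 and -0.21.

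Of the HMG members past the filter, all but Hmgb2 were near equal on both arrays. Hmgn1, a nucleosome-binding protein, had 2230.2 in Mili-/- and 2047.5 in Mili+/- (0.01). Hmgb3, an HMG-box protein of stem and progenitor cells, had 1700.3 in Mili-/- and 1637.6 in Mili+/- (-0.06), and the X-linked Hmgn5 had 411.8 in Mili-/- and 386.1 in Mili+/- (-0.02). These genes were slightly above the median of all genes under centring, by 0.14, 0.07 and 0.11. Hmgb2, an HMG-box protein with a known role in mouse spermatogenesis, had 157.2 in Mili-/- and 212.3 in Mili+/- (-0.54), on a probe set chosen under relaxed rules, per its name.

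Dek, a DNA-bending and histone-binding protein of dividing cells, had 250.9 in Mili-/- and 500.2 in Mili+/-. The difference of -1.11 after centring (-0.995 as deposited) is a 2.15-fold lower level, and rank 18 from the lowest of 5095 genes. Both signals lay well above the 75th percentile of their arrays (132.5 in Mili-/- and 135 in Mili+/-), so the floor on dim values did not touch it. Only 1 probe set reads Dek, and no second measurement on these arrays checks it. The median of the 5 HMG and Dek genes past the filter was 0.07 above that of all genes, and it turned to -0.06 under quantile normalization.

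Further HMG and HP1 genes were read only by probe sets that the annotation shares with pseudogenes or predicted genes, and they are outside the counts. The Hmgb1 probe set had 132.2 in Mili-/- and 127.4 in Mili+/- (-0.06). That of Hmgn2 had 427.5 in Mili-/- and 593.7 in Mili+/- (-0.58). For Cbx3 (HP1 gamma) one probe set had 271.5 in Mili-/- and 382.7 in Mili+/- (-0.61) and another 85.1 in Mili-/- and 82.0 in Mili+/- (-0.06), so Cbx3 has no settled direction here.

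Heterochromatin proteins gave no common direction. Trim28 (KAP1), the corepressor that recruits H3 lysine 9 methylation to retroelements, had 1540.0 in Mili-/- and 1559.4 in Mili+/- (-0.13), the median of all genes. Cbx1 (HP1 beta) had 68.4 in Mili-/- and 80.3 in Mili+/- (-0.34). Cbx5 (HP1 alpha) had 104.4 in Mili-/- and 73.0 in Mili+/- (0.41), but its second probe set had 76.4 in Mili-/- and 73.3 in Mili+/- (-0.05).

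Histone lysine methyltransferases were mixed. Of 11 members 7 passed the filter, with a median of -0.38, and 4 of the 7 lay below the median of all genes. The H3 lysine 9 enzymes past the filter were Setdb1 and Ehmt2 (G9a), while Suv39h2 did not pass it. Setdb1, the partner of Trim28, had 268.6 in Mili-/- and 330.8 in Mili+/- (-0.41). Ehmt2, which acts in early meiosis in mice, had 512.2 in Mili-/- and 618.0 in Mili+/- (-0.38). Relative to the median of all genes they stood at -0.28 and -0.26, both within the 0.31 SD between probe sets. Kmt2a (MLL1), an H3 lysine 4 methyltransferase, had 121.6 in Mili-/- and 172.9 in Mili+/- (-0.62), whereas its other probe set had 55.7 in Mili-/- and 53.3 in Mili+/- (-0.05). Setd6, which methylates non-histone targets, had 47.6 in Mili-/- and 69.4 in Mili+/- (-0.65). The H4 lysine 20 enzymes were Kmt5a (198.8 in Mili-/- and 185.9 in Mili+/-, -0.01) and Kmt5c (143.2 in Mili-/- and 125.6 in Mili+/-, 0.08). The MLL relative Kmt2e had 377.7 in Mili-/- and 358.8 in Mili+/- (-0.04). Kmt5a, Kmt5c and Kmt2e stood above the median of all genes by 0.11, 0.20 and 0.09, also within the 0.31 SD. The group's position rested on the filter, since without it the 11 members had a median 0.04 above that of all genes.

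Lysine demethylases showed little difference. The 4 members past the filter lay between -0.29 and -0.18, all below the median of all genes and all within 0.31 of it. Kdm6a (UTX), which removes the Polycomb mark, had 90.5 in Mili-/- and 102.2 in Mili+/- (-0.29). Kdm3a (JHDM2A), which removes H3 lysine 9 methylation and is needed for spermatid maturation in mice, had 137.8 in Mili-/- and 146.4 in Mili+/- (-0.20). Kdm5b stood at -0.26 and Kdm3b at -0.18.

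Most histone deacetylase genes stood near the level of all genes, with Hdac3 and Hdac7 above it. Of 9 deacetylase and sirtuin genes 8 passed the filter, with a median of -0.13. The class I genes differed in direction, with Hdac1 at 185.6 in Mili-/- and 206.6 in Mili+/- (-0.26), Hdac2 at 321.8 in Mili-/- and 367.7 in Mili+/- (-0.30), and Hdac3, the catalytic subunit of the NCoR corepressor, at 180.9 in Mili-/- and 116.7 in Mili+/- (0.52). Hdac3 thus lay 0.65 above the median of all genes, over 2 SD between probe sets, with a single probe set. Hdac7, a class II deacetylase, had 161.0 in Mili-/- and 126.2 in Mili+/- (0.24), which is 0.37 above the median of all genes. The tubulin deacetylase gene Hdac6 had 1389.8 in Mili-/- and 1280.4 in Mili+/- (0.01). Hdac5 (-0.21), the gene of the mitochondrial Sirt3 (-0.26) and the cytoplasmic Sirt2 (-0.06) were close to all genes.

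The acetyltransferases and arginine methyltransferases had few members. Kat2a (GCN5), with 129.8 in Mili-/- and 119.7 in Mili+/- (0.01), and Kat2b (PCAF), with 189.6 in Mili-/- and 172.9 in Mili+/- (0.02), were slightly above all genes. Kat7 (HBO1), the H3 acetyltransferase linked to replication origins, had 331.3 in Mili-/- and 355.1 in Mili+/- (-0.21), and a second probe set stood at -0.50. Prmt1, the main asymmetric arginine methyltransferase, had 510.2 in Mili-/- and 614.6 in Mili+/- (-0.38), and Prmt3, past the filter through the Mili+/- array alone, had 37.4 in Mili-/- and 47.3 in Mili+/- (-0.45).

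Probe sets of one gene give the only internal check. Of the 57 members 7 had more than 1 probe set past the filter, and in 5 of these the probe sets had the same sign. A shared sign is favoured beforehand, since 68.9% of all genes lay under 0. Read against the median of all genes, the probe sets of Kmt2a, Smarca5 and Rnf2 fell on opposite sides, and those of Cbx5 both above. In 6 of the 7 genes the probe sets lay within 2 SD (0.62) of each other, the exception being Rnf2. Of the members past 1.5-fold only Suz12, Kmt2a and Rnf2 could be checked in this way. The second probe set kept the direction by over 0.31 from the median of all genes for Suz12 and not for Kmt2a or Rnf2. That of Suz12 passed through the Mili+/- array alone, which selects for a lower value in Mili-/-, so it is a weak check.

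**Figure D3:**
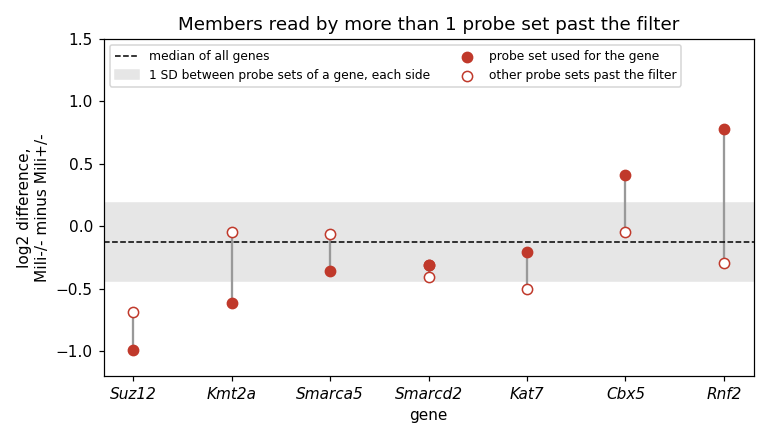
Log2 differences (Mili-/- minus Mili+/-) of each probe set past the filter for the 7 members with more than 1, with filled points for the probe set used and open points for the others. The Suz12 points (-0.99 and -0.69) both lie under the grey band of 1 SD around the median of all genes, while those of Rnf2 (0.78 and -0.29) lie on opposite sides of the median.

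The other 14 members did not reach the median signal on either array and were not compared. Kdm1a (LSD1), which removes H3 lysine 4 methylation, had 37.5 in Mili-/- and 29.2 in Mili+/-. Setd4, Setd1a, Chd1l, Chd7 and Kdm5a lay between 11.7 and 29.1 in Mili-/- and between 8.5 and 25.2 in Mili+/-. Suv39h2, an H3 lysine 9 methyltransferase of the testis, had 14.2 in Mili-/- and 2.4 in Mili+/-, which lies under the floor of 6.3. The Y-linked Kdm5d had 1.1 in Mili-/-, under the floor of 7.0, and 8.7 in Mili+/-. The deacetylase gene Sirt1 and Hmgb4, which is expressed in mouse spermatids, were near the floor, Sirt1 with 8.9 in Mili-/- and 7.8 in Mili+/- and Hmgb4 with 9.4 in Mili-/- and 8.7 in Mili+/-. Hmga2, Cbx7, Prmt5 and Setd3 were under the floor on both arrays and give no difference.

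Other chromatin genes outside these families were also compared. Of 85 listed genes, among them coactivators, bromodomain proteins, NuRD and corepressor subunits, histone chaperones and further SWI/SNF subunits, 57 had a probe set and 53 passed the filter. Their median difference was -0.21, with 35 of 53 (66.0%) below the median of all genes. At least 1.5-fold lower in Mili-/- were 3 of the 53 (5.66%), a share near the 5.04% of all genes, and none was 1.5-fold higher (2.47% of all genes). The 3 were the bromodomain gene Brd2, with 103.3 in Mili-/- and 180.2 in Mili+/- (-0.91), the PBAF subunit gene Pbrm1, with 121.2 in Mili-/- and 187.7 in Mili+/- (-0.74), and the H2A.Z chaperone gene Anp32e, with 191.3 in Mili-/- and 282.7 in Mili+/- (-0.67).

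Markers of the cell types in the testis differed as well, and their part in these differences was not tested. Of 15 spermatogonial markers 9 passed the filter. All 9 were under 0 (median -0.44), and 8 of them lay below the median of all genes. The summed signal of the 11 spermatogonial markers with a probe set was 3015 in Mili-/- and 3547 in Mili+/-. The 5 early meiotic markers with a probe set summed to 449.9 in Mili-/- and 545.1 in Mili+/-. The 15 Sertoli cell markers with a probe set had a median of 0.07 and summed to 9472 in Mili-/- and 8182 in Mili+/-. The 7 adipose markers with a probe set summed to 497.9 in Mili-/- and 265.7 in Mili+/-, with Adipoq at 52.7 in Mili-/- and 26.2 in Mili+/-. The 5 erythroid markers with a probe set summed to 1962 in Mili-/- and 1476 in Mili+/-, the 7 macrophage markers to 535.5 in Mili-/- and 459 in Mili+/-, and the 5 endothelial markers to 450.3 in Mili-/- and 388 in Mili+/-. The 5 Leydig cell markers with a probe set summed to 693.4 in Mili-/- and 774.1 in Mili+/-. All 4 past the filter were under 0 (median -0.29), and 3 of them lay below the median of all genes. The fifth, Insl3, was under the filter, with 18.5 in Mili-/- and 13.2 in Mili+/-. The 6 peritubular markers summed to 2112 in Mili-/- and 2023 in Mili+/- (median 0.01), and the 12 pachytene and spermatid markers to 318.8 in Mili-/- and 268 in Mili+/- (median 0.19 over 5 past the filter). No marker was at exactly 0, and the meiotic marker Sycp3, the spermatogonial marker Ret and the spermatid markers Prm1 and Prm2 were among those under the floor on both arrays. As a sign of RNA quality, the 3′ to 5′ ratio of the Actb control probe sets was 1.52 in Mili-/- and 1.53 in Mili+/-. The transcript of the targeted gene was not analysed here and gives no check of the genotypes.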

How the data were processed

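Polyadenylated RNA of day 10 testes was measured on 2 single-colour arrays, 1 per genotype, per the labels. The deposited table holds the authors' linear signal intensity per probe set (12488, of which 66 are controls), apparently already scaled, since the mean without the lowest and highest 2% was 100.0 in Mili-/- and 100.1 in Mili+/-. The software and any background correction were not given in the sources used here. Detection calls were not used. Signals were floored at each array's 20th percentile (7.0 in Mili-/- and 6.3 in Mili+/-), converted to log2 and centred on the array median, which removed a shift of 0.11 (higher in Mili-/-). A platform annotation gave 1 symbol to 10833 of 12422 probe sets, several to 396 and none to 1193. Of the 10833 probe sets, 10817 were matched by Entrez ID to a RefSeq table (GRCm38.p6) and took the symbol given there. Members were compared with all 5095 genes past the filter by medians and counts, without a test. The pipeline was tested on simulated data.

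The 34 members followed under other settings are the 12 highest and 12 lowest, the extremes of each role group, and those with several probe sets past the filter. Core members and dim members are also listed. The members and lists were chosen with earlier results of these data known. Alternatives were other scalings, floors, filters, probe set rules, symbols and folds. The number of arrays limits the precision. Python 3.11.15, NumPy 2.4.6, pandas 2.3.3 and statsmodels 0.14.6 were used.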

Additional observations from a re-analysis of the deposited data

How the results depend on the processing

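The position of the members relative to all genes (-0.14) moved beyond its spread only under a stricter filter (75th percentile), where it was -0.079. The same filter put the lysine methyltransferases at -0.078, and no filter turned them to 0.042. The mean over probe sets put the acetyltransferases at -0.25, since it lowered both Kat7 and Kat2b, the first through a probe set past the filter and the second through a dim one. The other group medians stayed within their spread, the SD between probe sets divided by the square root of the number of members. This spread treats genes as independent readings and holds no variation between animals or hybridisations. It sizes a shift between settings and does not say how firm a group's position is. The count of members at least 2-fold lower was 0 with no centring, quantile normalization, loess and centring on the median of all genes past the filter, and 5 at 1.5-fold and 0 at 3-fold. The count at least 2-fold higher was 1 without the filter (Suv39h2) and 1 at 1.5-fold. The count at least 1.5-fold lower was 2 with no centring, loess and centring on all genes, and 3 with quantile normalization and under the stricter filter. With the mean over probe sets it was 4. Under that mean Cbx2 (-0.70) was among the 4, while Suz12 (-0.39) and Kmt2a (-0.33) were not. The count at least 1.5-fold higher was 2 under these 4 scalings and without the filter, and 0 with the mean over probe sets. Single-gene values were followed for 34 members, which leaves out core members such as Eed, Ezh2 and Smarca4. Of the 34 members followed, 22 had a value under all 12 settings, and 12 dropped out under a stricter filter or probe set rule. Of the 393 values obtained 390 stayed within 1 SD, and the other 3 came from the mean over probe sets, which put Suz12 at -0.39, Rnf2 at 0.19 and Kat2b at -0.40. Most of the 390 could not have moved. The floors, filters, symbols and the rule on probe set names left the values of these genes unchanged or dropped the gene. No centring and centring on all genes shift every gene by 1 constant below that SD. No paired analysis was possible because each genotype has 1 array. No alternative gives a replicate, so differences between animals, hybridisations and genotypes cannot be told apart.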
